A study of Canis lupus familiaris with 14 samples.

Results

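The genes described here lie at the end of dog chromosome 8, which in the CanFam3.1 assembly holds the immunoglobulin heavy chain locus. They are all genes of the deposited table on chromosome 8 that start at position 72500000 or beyond, 55 of 30951 genes. Whole blood RNA was sequenced from 7 dogs with lymphoma, a cancer of lymphocytes, labelled as diseased, and from 7 dogs labelled as controls without lymphoma. Each library is 1 sample with its own number, and the labels used here give no breed, age, treatment or lymphoma subtype. The series' own design text speaks of a disease other than lymphoma in the control dogs, whose labels say only control and non-lymphoma. The B or T cell origin of each lymphoma is unknown here. Total counts ranged from 9845059 to 14831589 in lymphoma dogs and from 13522628 to 21610927 in non-lymphoma dogs. Region and contrast were both known when the genes were chosen: they were selected on position, at a chromosome end picked for its lower counts in lymphoma in the same libraries. Differences between the groups are therefore described with their spread, and the calls of the fit over all genes are given only as counts beside their background.

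An immunoglobulin heavy chain is encoded by separate V, D and J segments, which a developing B cell joins once, and by constant genes downstream that set the antibody class. A B cell and its descendants keep 1 joined V segment, so a blood sample with many different B cells uses many V segments, and a sample with 1 expanded B cell clone uses mainly the V segment of that clone. Plasma cells carry far more heavy chain transcript than resting B cells. In whole blood, fewer cells of a type and less RNA per cell cannot be told apart. V segments resemble each other in sequence, so a short read may fit several of them, and somatic mutation can keep a read from matching at all.

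The deposited table pairs no identifier with a gene name. Of its identifiers, 0 were found in the reference gene table, which is built on the assembly UU_Cfam_GSD_1.0. That table lists 66 V segments and 7 constant regions in the last 4 Mb of chromosome 8, but none can be assigned to a gene here. Markers of B cells, plasma cells and T cells could not be matched either, so the label of the locus rests on position and gene structure. A stretch without gene starts separates 17 genes between 72511343 and 72816079, called the flanking stretch, from 38 genes between 72850670 and 74293206, called the locus stretch. Of the 38 genes of the locus stretch 36 lay on the minus strand, against 4 of 17 in the flanking stretch.

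The locus stretch held 8 genes of 2 exons and 250 to 600 exonic bases, the size of a V segment with its leader, and these are called V-segment-like. The name rests on exon number and exonic length only. Spans of these genes, given below, run to 31.6 kb, and whether each holds 1 V segment is not annotated. Another 13 genes had the same length with 1 exon (7 genes) or with 3 or more (6 genes). Together these 21 V-sized genes are numbered here short member 1 to 21 in the order of their starts. The 15 genes over 600 bases are numbered long member 1 to 15 in the same way, and 2 genes of 162 and 219 bases have no number. The lengths of V-segment-like members ran from 315 to 494 bases. Just outside the limits of length, the gene of 219 bases at 73430326 to 73430644 had 0 to 3 counts in lymphoma dogs and 0 to 11 in non-lymphoma dogs, and the next longer 2-exon gene, long member 13 with 757 bases, had 0 to 74 and 9 to 151. At the limit of position, the first gene inside, at 72511343 to 72513092, had 0 counts in lymphoma dogs and 0 to 2 in non-lymphoma dogs, and the last gene outside, at 72479905 to 72493609, had 64 to 349 and 284 to 914.

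Of the 55 genes, 22 passed the filter on low counts and entered the comparison of all 12836 tested genes: 14 of the locus stretch, 2 of them V-segment-like, and 8 of the flanking stretch. The other 33 had too few counts. The quasi-likelihood test of edgeR called 8 of the 22 lower in lymphoma, where 7.4% of all tested genes were called lower. It called 0 higher, where 9.21% of all tested genes were called higher. At an unadjusted p under 0.05 the number higher was also 0, and DESeq2 gave 0 too. CPM (a gene's counts scaled to a common library total) did not overlap between the groups, with lymphoma lower, for 4 of the 22, against 2.39% of tested genes, and with lymphoma higher for 0, against 0.982%. Since the same contrast picked the region, nothing is read from these counts. The 22 log2 fold changes, lymphoma over non-lymphoma, had a median of -0.73 and ran from -4.24 to 0.52, beside a median of -0.05 over all tested genes. Medians were -1.14 for the 14 genes of the locus stretch and -0.58 for the 8 of the flanking stretch. Of the 8 lower calls, 5 lay in the locus stretch and 3 in the flanking stretch.

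**Figure D1:**
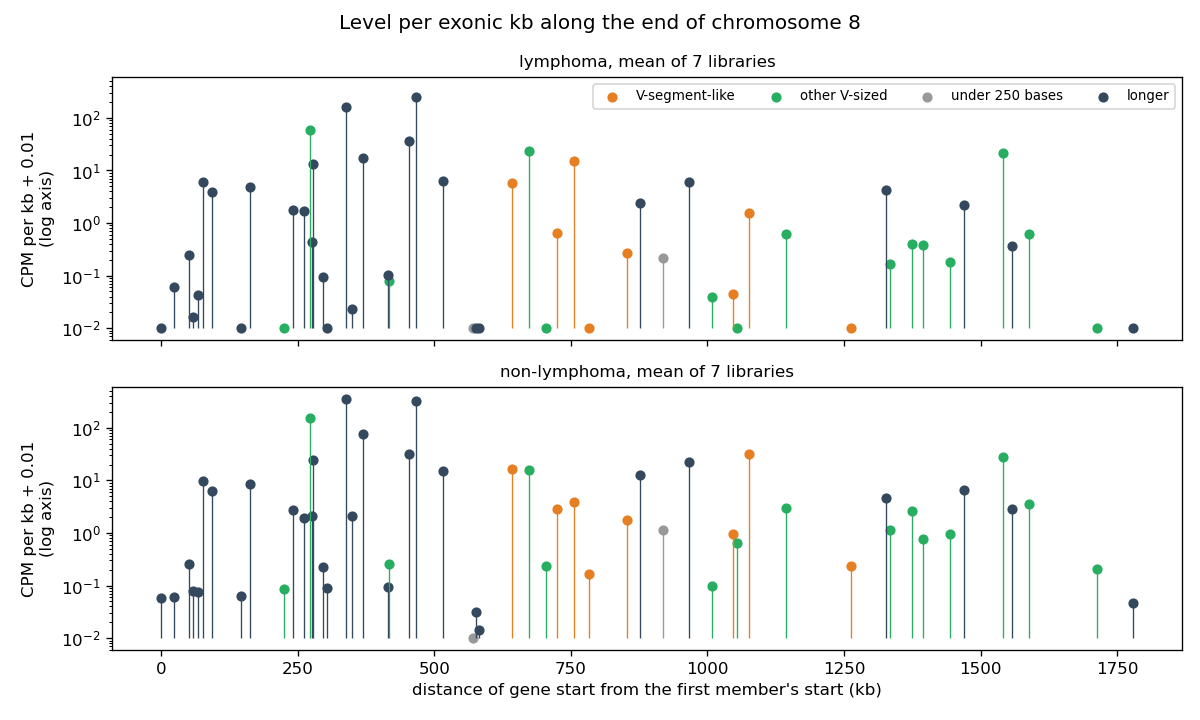
Mean level of each of the 55 genes per exonic kb (CPM per kb plus 0.01, log axis) against the distance of its start from the first gene's start, for lymphoma above and non-lymphoma below, 7 libraries each. Long members 1 and 6, stand highest among the longer genes in both groups, and the short members further on lie lower in both.

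Detection of the V-segment-like members was lower in lymphoma blood. In lymphoma libraries 0 to 4 of the 8 had at least 1 count, with a median of 3, and in non-lymphoma dogs 6 to 8, with a median of 7. The ranges did not overlap. Totals were lower in lymphoma, so every library was thinned to the smallest total of 9845059 counts. The expected number was then 2.35 ± 1.37 in lymphoma dogs and 6.65 ± 0.645 in non-lymphoma dogs (mean ± SD over 7 dogs each). The 21 V-sized members showed the same order, with 2 to 11 and 16 to 21 detected before thinning. Of all 55 genes, 13 had no count in any lymphoma library and 1 had none in any non-lymphoma library. These numbers are before thinning, with totals lower in lymphoma, and the share over all genes is not given here. Nothing is read from them. A count of 0 in 1 library allows a level of up to 0.139 to 0.305 CPM, which is what 3 counts are worth in the deepest and the shallowest library, and this covers counting error only.

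The pooled level of the 8 V-segment-like members was 0 CPM at the lowest, 1.58 CPM at the median and 35.5 CPM at the highest in lymphoma libraries. In non-lymphoma libraries it was 5.47, 17.7 and 45.6 CPM. The ratio of the medians was 11.3-fold, lower in lymphoma. In lymphoma, 5 of the 7 values were under the lowest non-lymphoma value, while replicates 5 and 6, with 10.3 and 35.5 CPM, lay inside the non-lymphoma range. Counts behind these levels were few in lymphoma, from 0 in replicate 1 to 527 in replicate 6, against 74 to 985 in non-lymphoma dogs. On the log2(CPM + 0.1) scale the means were 1.006 ± 2.70 in lymphoma dogs and 4.003 ± 0.91 in non-lymphoma dogs (mean ± SD over 7 dogs each), a difference of -3.00. It was -2.28 without lymphoma replicate 1 and -3.69 without lymphoma replicate 6. Lymphoma replicates 5 and 6 are the lymphoma libraries whose sample numbers have 5 digits, as all non-lymphoma numbers have. Among the libraries with 5-digit numbers alone the difference was 0.27, higher in lymphoma, so its direction rests on the other 5 lymphoma libraries. For the locus stretch as a whole that subset gave -1.03, beside -1.39 over all libraries. Whether the form of the number marks a batch is not stated in the labels, and its part in the result was not tested.

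With all 21 V-sized members, a set drawn up after the data were seen, the groups lay closer. Their pooled level was 1.32, 25.3 and 38.7 CPM at the lowest, the median and the highest in lymphoma, and 19.1, 37.1 and 70.3 CPM in non-lymphoma dogs. Here 3 of 7 lymphoma libraries were lower than all 7 non-lymphoma ones. The widest gaps in count between the V-segment-like class and the wider set among lymphoma libraries were those of replicates 1 and 3, which held 508 and 364 counts in V-sized members but 0 and 16 in V-segment-like ones. Replicates 4, 5 and 7 also held more, with 86, 323 and 88 counts beside 20, 132 and 13.

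**Figure D2:**
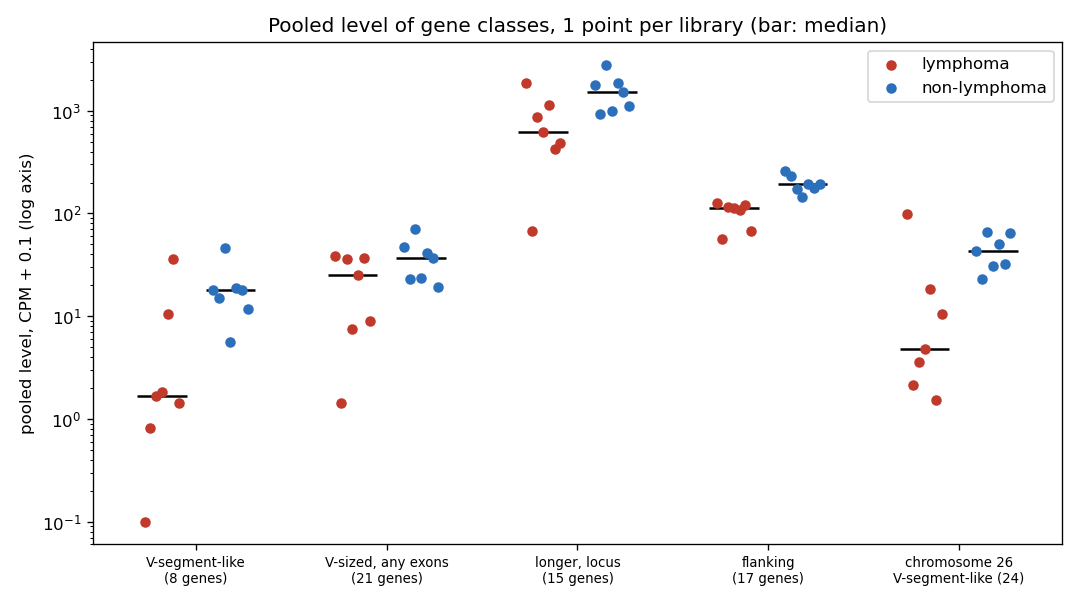
Pooled level of 5 gene classes in each library (CPM plus 0.1, log axis), lymphoma left of non-lymphoma, with bars at the medians. Lymphoma libraries spread from 0 to 35.5 CPM in the V-segment-like class and from 56.8 to 125 CPM in the flanking stretch, where all 7 lie below every non-lymphoma library.

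The level differences were not spread evenly over the V-sized members: 5 of the 21 carried most of their counts. Short member 12 (ENSCAFG00000045680, V-segment-like, 315 exonic bases in 2 exons at 73586711 to 73595785) was the most abundant V-segment-like gene of non-lymphoma blood. It had 0, 0.0674 and 2.19 CPM at the lowest, the median and the highest in lymphoma, and 1.63, 9.59 and 23.7 CPM in non-lymphoma dogs. The groups overlapped only through lymphoma replicate 5 and non-lymphoma replicate 4. Its log2 fold change was -4.24 (SE 0.82). It was -5.51 without lymphoma replicate 5 and -3.14 among the libraries with 5-digit numbers, where the fit did not call it. That smaller fit called 104 of 14580 genes.

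Short member 2 (V-segment-like, 315 bases at 73152989 to 73159817) was the V-segment-like gene found in most lymphoma libraries, with a count in 6 of 7, and in 7 of 7 non-lymphoma libraries. Its level was 0, 0.813 and 6.34 CPM in lymphoma dogs and 1.52, 4.64 and 14.1 CPM in non-lymphoma dogs at the lowest, the median and the highest. The groups overlapped, and the log2 fold change was -1.36 (SE 0.70; -2.03 without lymphoma replicate 5).

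Short member 6 (V-segment-like, 315 bases at 73266605 to 73272384) was at 0 in 5 lymphoma libraries, had 1 count in replicate 4, and had 484 counts, or 32.6 CPM, in replicate 6. In non-lymphoma libraries it had 3 to 62 counts, or 0.222 to 2.87 CPM. Lymphoma replicate 6 stood above every other library and the remaining 6 lymphoma libraries below every non-lymphoma one. Too few libraries held it for the filter, so it was not tested.

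Short member 3 has a single exon of 309 bases at 73184762 to 73185070. It had 0, 0.609 and 38.0 CPM at the lowest, the median and the highest in lymphoma, and 2.08, 4.19 and 9.86 CPM in non-lymphoma dogs. The highest value was that of lymphoma replicate 1, with 499 counts, and replicate 5 followed with 10.1 CPM. The other 5 lymphoma libraries were lower than all 7 non-lymphoma ones. Its log2 fold change was 0.52 (SE 0.92), and -1.08 without lymphoma replicate 1.

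Short member 19, another single exon of 309 bases, lies at 74052039 to 74052347. It had 0, 2.82 and 32.3 CPM in lymphoma dogs and 1.52, 10.6 and 16.5 CPM in non-lymphoma dogs at the lowest, the median and the highest. Lymphoma replicate 3, with 328 counts, stood above every non-lymphoma library, and 3 lymphoma libraries lay below every one of them. The log2 fold change was -0.23 (SE 0.86), and -1.56 without lymphoma replicate 3.

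Among the other V-segment-like members, short member 5 (73235300 to 73266913) and short member 8 (73364870 to 73365466) each had a count in 2 of 7 lymphoma and 7 of 7 non-lymphoma libraries. Short member 10 (73557606 to 73558100) had a count in 1 of 7 and 5 of 7. Short members 7 (73294959 to 73295511) and 14 (73774111 to 73774539) had a count in 0 of 7 lymphoma libraries, and in 6 and 4 of 7 non-lymphoma libraries with at most 4 counts each. The spans of short members 2, 5, 6 and 12 run over 6.83, 31.6, 5.78 and 9.07 kb for 315 or 321 exonic bases. Whether 2 exons so far apart belong to 1 V segment is not shown. A share of these members need not be that of 1 V segment. The other 4 V-segment-like members span 0.429 to 0.597 kb. All 8 lie within the span of another annotated gene, and none of the 55 genes shares exonic bases with another gene.

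Usage within the V-sized pool differed between lymphoma libraries more than between non-lymphoma libraries. The most abundant V-sized member took 39.9%, 69.8% and 98.2% of the pool at the lowest, the median and the highest in lymphoma, and 30.9%, 33.8% and 45.5% in non-lymphoma dogs. The mean share was 71.2 ± 21.8% in lymphoma dogs and 36.3 ± 5.70% in non-lymphoma dogs (mean ± SD over 7 dogs each). It was above every non-lymphoma library in 6 of 7 lymphoma libraries. Replicate 5, the exception, led with short member 3 at 39.9%. This set of 21 was drawn up after the data were seen. Among the 8 V-segment-like members alone, the leading share was above every non-lymphoma library in 3 of 6 lymphoma libraries.

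The identity of the leading member also differed from dog to dog. Lymphoma replicate 1 had 499 of 508 V-sized counts on short member 3, or 98.2% with an exact Clopper-Pearson 95% interval of 96.7 to 99.2%. Lymphoma replicate 3 had 328 of 364 on short member 19, or 90.1% (86.6 to 93.0%). Lymphoma replicate 6 had 484 of 545 on short member 6, or 88.8% (85.9 to 91.3%). These 3 libraries led with 3 different members, and short member 6 led in no other library.

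Lymphoma replicates 4 and 7 led with short member 19, at 69.8% (58.9 to 79.2%) of 86 counts and 58.0% (47.0 to 68.4%) of 88 counts. Lymphoma replicate 2 had 13 V-sized counts in all, too few for its leading share of 53.8% (25.1 to 80.8%) to be told from the non-lymphoma shares. The lower bound of the interval lay above the highest upper bound of all non-lymphoma intervals, 51.2%, in 4 lymphoma libraries, replicates 1, 3, 4 and 6. Intervals cover counting error only, since reads were not counted as molecules.

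In non-lymphoma libraries the pool was shared more widely. Short member 19 led in replicates 1, 4, 5 and 6, and short member 12 in replicates 2, 3 and 7. Median shares there were 30.9% for short member 19, 26.99% for short member 12, 14.4% for short member 3, 12.6% for short member 2 and 3.90% for short member 6. Lymphoma replicates 1, 3, 5 and 6 had 508, 364, 323 and 545 V-sized counts, within the range of 300 to 1519 of the non-lymphoma libraries. The effective number of V-sized members, estimated as the inverse of the chance that 2 counts of a library fall on the same member, was 2.07 ± 1.09 in lymphoma dogs and 4.87 ± 0.678 in non-lymphoma dogs (mean ± SD over 7 dogs each). It was lower than in every non-lymphoma library in 6 of 7 lymphoma libraries.

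**Figure D3:**
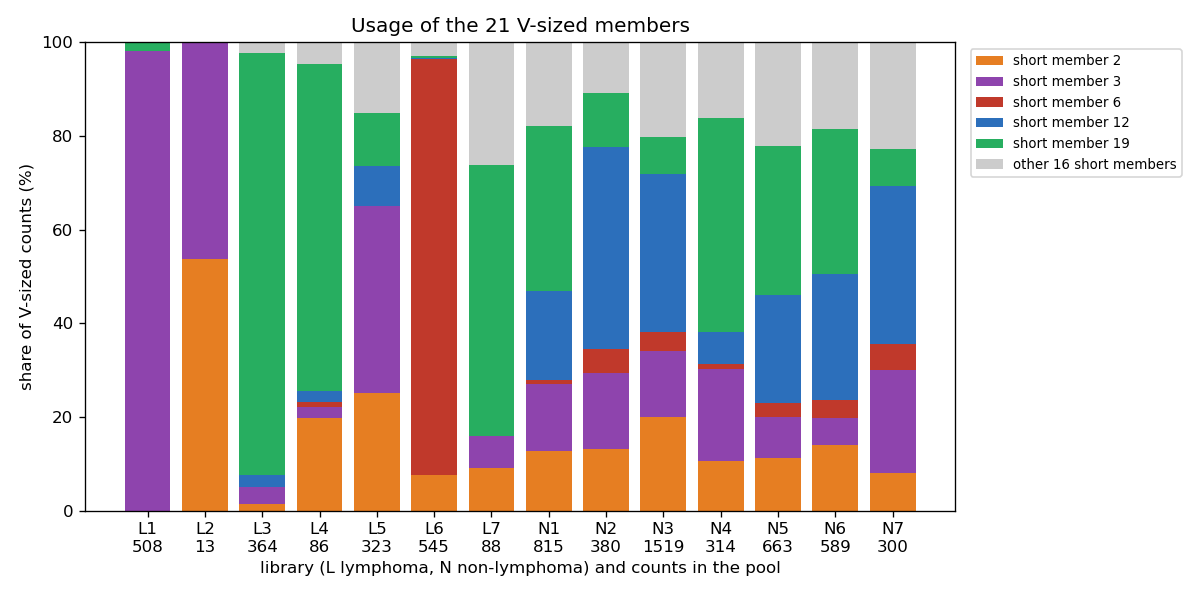
Share of each library's V-sized counts (percent, stacked to 100) carried by short members 2, 3, 6, 12 and 19 and by the other 16, with the number of counts under each library (L lymphoma, N non-lymphoma). Lymphoma replicates 1, 3 and 6 are each filled mostly by 1 colour, 98.2%, 90.1% and 88.8%, while no member exceeds 45.5% in a non-lymphoma library.

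Within the 8 V-segment-like members alone the difference had the same direction and was smaller. After thinning to the smallest pool above 0, which was 7 counts, the leading member took 77.6 ± 16.8% in lymphoma (SD, n = 6, replicate 1 having no count) and 58.0 ± 5.22% in non-lymphoma dogs (SD, n = 7). The effective number was 1.63 ± 0.498 in lymphoma (SD, n = 6) and 2.37 ± 0.255 in non-lymphoma dogs (SD, n = 7). Ranges overlapped, and the leading share before thinning was above every non-lymphoma library in 3 of 6 lymphoma libraries, replicates 2, 4 and 6, where replicates 2 and 4 had 7 and 20 counts. The only lymphoma interval above all non-lymphoma intervals was that of replicate 6, with 91.8% (89.2 to 94.0%) on short member 6.

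Genes of the same structure in the region of chromosome 26 from 24 to 28 Mb, where the dog's immunoglobulin lambda light chain genes lie, were set beside these. The 24 genes had a pooled level of 1.42, 4.69 and 99.1 CPM at the lowest, the median and the highest in lymphoma, and 23.0, 43.1 and 66.1 CPM in non-lymphoma dogs. Their leading member took 49.9 ± 14.3% in lymphoma dogs and 53.3 ± 11.6% in non-lymphoma dogs (mean ± SD over 7 dogs each). In the 2-exon class of chromosome 8, without thinning, it took 77.0 ± 17.4% in lymphoma (SD, n = 6) and 53.7 ± 6.94% in non-lymphoma dogs (SD, n = 7). The higher leading share of that class in lymphoma was not seen on chromosome 26. Lymphoma replicates 2, 3, 4 and 6 had only 20 to 54 counts there. Lymphoma replicate 1 was the library with 99.1 CPM. It had 919 of 1302 counts on the gene at 25156607 to 25157471, with 414 exonic bases, which had 0 to 2 counts in the other lymphoma libraries and 4 to 33 in the non-lymphoma libraries. The leading share of lymphoma replicate 1 on chromosome 26 was 70.6%, beside 70.9% in non-lymphoma replicate 7 on another gene, starting at 26869173. The leading share of lymphoma replicate 1 was thus above every non-lymphoma library among the 21 V-sized members of chromosome 8, of any exon number. It was not so among the 24 genes of chromosome 26, which all have 2 exons. In the 2-exon class of chromosome 8 this library had 0 counts, so the like class gives no share to compare. Lymphoma replicate 6, with 545 V-sized counts on chromosome 8, had 21 counts in the 24 genes of chromosome 26.

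The longer members of the locus stretch carried most of its counts, from 92.1 to 98.8% in lymphoma dogs and from 97.4 to 98.3% in non-lymphoma dogs. Their pooled level was 67.8, 622 and 1877 CPM at the lowest, the median and the highest in lymphoma, and 924, 1534 and 2774 CPM in non-lymphoma dogs. In lymphoma, 5 of the 7 values were under the lowest non-lymphoma value. Replicate 2 was lowest and replicate 1 highest of the lymphoma libraries. Whether a longer member is a constant gene is not annotated in the files.

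Per exonic kb, 2 genes of the locus stretch stood highest in both groups. Long member 6 (5 exons, 1531 bases at 72977146 to 72981735) averaged 255 CPM per kb in lymphoma dogs and 324 CPM per kb in non-lymphoma dogs. Long member 1 (2 exons, 1349 bases at 72850670 to 72852219) averaged 161 and 352 CPM per kb. Per library, long member 6 had 11.5, 218 and 1476 CPM at the lowest, the median and the highest in lymphoma, and 224, 513 and 846 CPM in non-lymphoma dogs. Long member 1 had 5.10, 36.9 and 633 CPM in lymphoma, and 150, 430 and 807 CPM in non-lymphoma dogs. Log2 fold changes were -0.30 (SE 0.62; -1.08 without lymphoma replicate 1) for long member 6 and -1.001 (SE 0.78) for long member 1.

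In the balance between these genes, the share of long member 6 lay outside the non-lymphoma range in every lymphoma library, on either side and in some only just. Long member 6 took 19.6 to 46.1% of the counts of the locus stretch in non-lymphoma dogs. In lymphoma it took 77.1%, 78.0% and 66.3% in replicates 1, 4 and 6, above that range, and 11.96 to 18.8% in replicates 2, 3, 5 and 7, below it. Long member 1 took 0.266%, 5.54% and 7.96% in lymphoma replicates 1, 4 and 6, and 39.5 to 70.5% in lymphoma replicates 2, 3, 5 and 7, against 8.16 to 52.4% in non-lymphoma dogs. No lymphoma library lay within the non-lymphoma range for long member 6, though replicates 3 and 5, at 18.8% and 18.6%, lay close to its lower end. For long members 1 and 3, 3 lymphoma libraries each lay within that range.

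**Figure D4:**
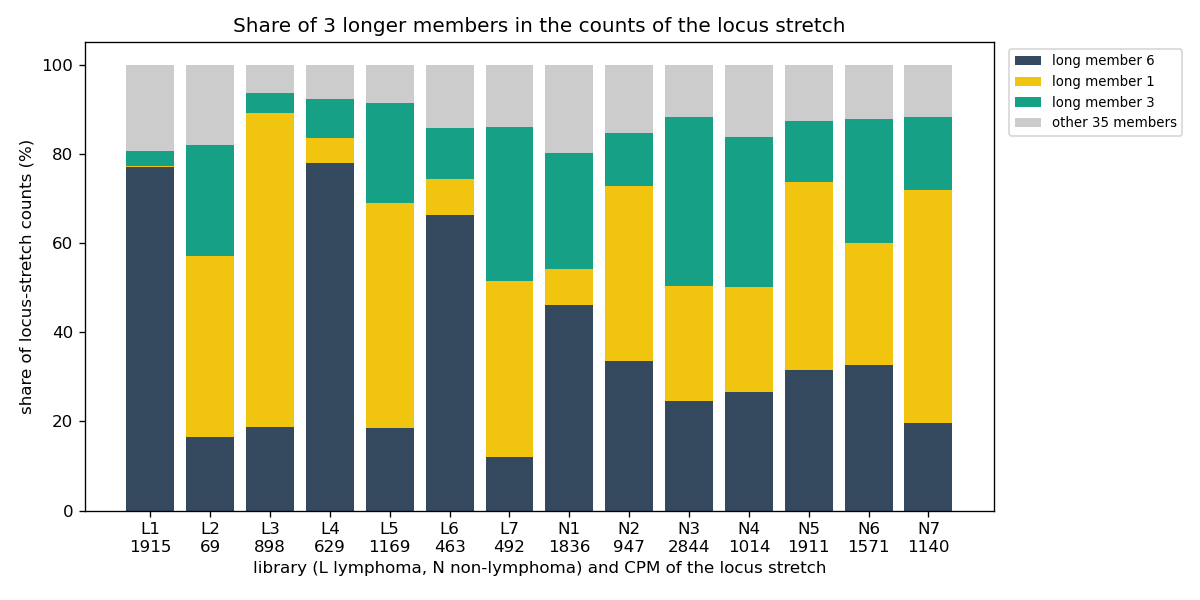
Share of each library's locus-stretch counts (percent, stacked to 100) on long members 6, 1 and 3 and on the other 35 genes, with the level of the stretch in CPM under each library (L lymphoma, N non-lymphoma). Long member 6 takes 66.3 to 78.0% in lymphoma replicates 1, 4 and 6 and at most 46.1% in a non-lymphoma library.

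Among the longer members of the locus stretch, long member 3 (17 exons, 5520 exonic bases over 507 kb at 72881377 to 73388517) came next per exonic kb in non-lymphoma dogs, averaging 17.05 CPM per kb in lymphoma and 74.9 CPM per kb in non-lymphoma dogs. It had 17.3, 54.7 and 260 CPM at the lowest, the median and the highest in lymphoma, and 112, 342 and 1079.9 CPM in non-lymphoma dogs. Lymphoma replicates 5 and 7 lay inside the non-lymphoma range and the other 5 below it. Its log2 fold change of -1.89 (SE 0.58) lay between -2.27 and -1.34 with any 1 library left out.

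Long member 5 (6 exons, 1083 bases at 72965556 to 72970372), next to long member 6, had 234 CPM in lymphoma replicate 1 and 1.62 to 15.2 CPM in the other lymphoma libraries. In non-lymphoma libraries it had 152 CPM in replicate 1, 0.304 CPM in replicate 2 and 13.3 to 22.4 CPM in the other 5. One dog of each group thus stood far above the rest of its group. The log2 fold change was 0.31 (SE 1.04), and -2.02 without lymphoma replicate 1 and 1.34 without non-lymphoma replicate 1.

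Long member 2 (5 exons, 2872 bases at 72860514 to 72865700), chosen after its values were seen, had 0 to 2 counts in lymphoma libraries. In non-lymphoma libraries it had 615 counts, or 37.4 CPM, in replicate 2 and 0 to 56 counts in the other 6. Non-lymphoma replicate 2 was also the library with the lowest level of long member 5.

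Further along, among the V-sized genes, long members 10, 12, 13 and 14 had negative log2 fold changes, by different amounts. Long member 10 (967 bases at 73386962 to 73466787) had 0.228, 2.17 and 5.99 CPM at the lowest, the median and the highest in lymphoma, and 9.15, 10.7 and 19.5 CPM in non-lymphoma dogs. It is the only tested gene of the locus stretch whose groups did not overlap, and its log2 fold change was -2.10 (SE 0.54; -2.73 without lymphoma replicate 7). Long member 14 (ENSCAFG00000043645, 9 exons, 3699 bases at 74067754 to 74243130) had 0, 0.135 and 4.23 CPM in lymphoma dogs and 3.16, 12.8 and 17.9 CPM in non-lymphoma dogs. Its groups overlapped through lymphoma replicates 5 and 7, giving a log2 fold change of -2.74 (SE 0.85). It was -3.33 without lymphoma replicate 5 and -3.38 without lymphoma replicate 7.

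Long member 11 (10 exons, 4041 bases over 409 kb at 73477691 to 73886755), named after its values were seen, had 4.37, 13.4 and 73.3 CPM in lymphoma dogs and 33.1, 74.1 and 193 CPM in non-lymphoma dogs, giving -1.87 (SE 0.50). Lymphoma replicates 1 and 5 lay inside the non-lymphoma range. Long member 7 (73027333 to 73028869), also named after its values were seen, spread over 0.0674, 1.38 and 31.1 CPM in lymphoma and 2.90, 17.1 and 50.9 CPM in non-lymphoma dogs, with overlap and a log2 fold change of -0.76 (SE 0.98). Among lymphoma libraries, long member 7 was highest in replicates 5 and 7, where long member 6 took a small share of the stretch. In lymphoma replicates 2 and 3, where that share was also small, long member 7 had 4.27 and 1.38 CPM.

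Long member 13 (757 bases at 73980495 to 74052834) had 0, 0.457 and 7.29 CPM in lymphoma dogs and 0.572, 5.85 and 9.46 CPM in non-lymphoma dogs, giving a log2 fold change of -1.27 (SE 0.91; -2.25 without lymphoma replicate 3). Lymphoma replicate 3 held the highest lymphoma level of this gene and of short member 19, whose exon lies within its span. Long member 12 (915 bases at 73837451 to 73956704) had 21.8 CPM in lymphoma replicate 1 and 0.203 to 2.17 CPM in the other lymphoma libraries, against 0.813 to 9.90 CPM in non-lymphoma dogs. Its log2 fold change was -0.21 (SE 0.80), and -2.11 without lymphoma replicate 1. Lymphoma replicate 1, with no V-segment-like count, was thus the highest library for short member 3 and for long members 5, 6 and 12.

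The flanking stretch, which holds no V-segment-like gene, was lower in lymphoma as well. Its 17 genes together had 56.8, 113 and 125 CPM at the lowest, the median and the highest in lymphoma, and 146, 192 and 262 CPM in non-lymphoma dogs, with no overlap. On the log2(CPM + 0.1) scale the difference was -0.99, against -1.39 for the 38 genes of the locus stretch and -0.73 for the 709 other genes of 2 exons and V-segment size elsewhere in the genome. Without lymphoma replicate 2 it was -0.87 for the flanking stretch and -0.88 for the locus stretch, so the larger difference of the locus stretch rests on that library. The spread between lymphoma libraries was larger in the locus stretch, with an SD of 1.53 on that scale, than in the flanking stretch, with 0.46.

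Most of the flanking counts came from a few genes. The 5-exon gene of 412 bases at 72784788 to 72786108 had 11.5, 25.2 and 33.4 CPM at the lowest, the median and the highest in lymphoma, and 45.3, 59.7 and 102 CPM in non-lymphoma dogs, giving a log2 fold change of -1.26 (SE 0.24). The gene at 72787099 to 72788206, with few counts, had 0, 0.380 and 1.15 CPM in lymphoma dogs and 1.30, 1.76 and 4.51 CPM in non-lymphoma dogs, with -2.04 (SE 0.51). In both genes the groups did not overlap. Neither did they in the 28-exon gene at 72673472 to 72721215, named after its values were seen, with 10.1, 20.9 and 25.4 CPM in lymphoma and 26.6, 36.6 and 41.2 CPM in non-lymphoma dogs, giving -0.64 (SE 0.16). The gene at 72788592 to 72795326 had a log2 fold change of -0.70 (SE 0.24). Also among the more abundant was the 19-exon gene at 72588693 to 72632263, named after its values were seen. It had 9.86, 18.8 and 25.9 CPM in lymphoma and 20.6, 30.5 and 43.2 CPM in non-lymphoma dogs. Its groups overlapped, with a log2 fold change of -0.42 (SE 0.23). The gene at 72773451 to 72778949 had -0.02 (SE 0.42), with medians of 4.79 CPM in lymphoma dogs and 4.78 CPM in non-lymphoma dogs.

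Variation between libraries of 1 group was not used to choose the region and could be tested. In each group 3 relations were computed, 6 in all, with two-sided exact permutation tests over all pairings and Benjamini-Hochberg adjustment over the 6. In non-lymphoma blood the pooled level of V-segment-like members rose with that of the 6 longer genes that start among or after them (n = 7; Pearson r = 0.919, exact permutation p = 0.00119, adjusted p = 0.00714; Spearman rho = 0.964, exact permutation p = 0.00278, adjusted p = 0.0167). Without the 2 libraries farthest from the median on the V-segment-like axis, r was 0.855 (n = 5, exact permutation p = 0.05, adjusted p = 0.175). Without non-lymphoma replicate 3 it was 0.817 (adjusted exact permutation p = 0.0833). In both cases r missed the threshold after adjustment. The rho also missed the threshold without any one of non-lymphoma replicates 1, 3, 4, 5 and 6 (0.943, n = 6, adjusted exact permutation p = 0.1 each) and with TMM-scaled totals (0.893, n = 7, adjusted exact permutation p = 0.0738). The r passed the threshold without any one of the non-lymphoma replicates other than 3 (0.919 to 0.959, n = 6, adjusted exact permutation p = 0.00833 to 0.0333). With TMM-scaled totals r was 0.9355 (n = 7, adjusted exact permutation p = 0.00714). Exact tests on 5 or 6 libraries have few pairings, so a miss there does not show that the relation is absent. Both pooled levels share the library and its total.

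In lymphoma the same relation had r = -0.325 (n = 7, exact permutation p = 0.484, adjusted p = 0.58) and rho = -0.143 (exact permutation p = 0.783, adjusted p = 0.783). Without the 2 farthest libraries r was 0.778 (n = 5, exact permutation p = 0.192). Replicate 1 had no V-segment-like count with the highest level of the longer genes, and replicate 6 the highest V-segment-like level. The difference between the groups in this relation was not tested.

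Against the V-segment-like genes of chromosome 26, r was -0.599 in lymphoma (n = 7, exact permutation p = 0.158, adjusted p = 0.475; rho = -0.393, exact permutation p = 0.396, adjusted p = 0.667) and 0.472 in non-lymphoma dogs (n = 7, exact permutation p = 0.291, adjusted p = 0.532; rho = 0.536, exact permutation p = 0.236, adjusted p = 0.667). Without the 2 farthest libraries r was 0.817 in lymphoma (n = 5) and -0.295 in non-lymphoma dogs (n = 5), so both signs rest on those libraries. Against the effective number of V-segment-like members, r was -0.02 in lymphoma (n = 6, exact permutation p = 0.947, adjusted p = 0.947; rho = 0.2, exact permutation p = 0.714, adjusted p = 0.783) and -0.403 in non-lymphoma dogs (n = 7, exact permutation p = 0.355, adjusted p = 0.532; rho = -0.357, exact permutation p = 0.444, adjusted p = 0.667). Without the 2 farthest libraries these were 0.597 (n = 4, exact permutation p = 0.458) and -0.147 (n = 5, exact permutation p = 0.792).

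**Figure D5:**
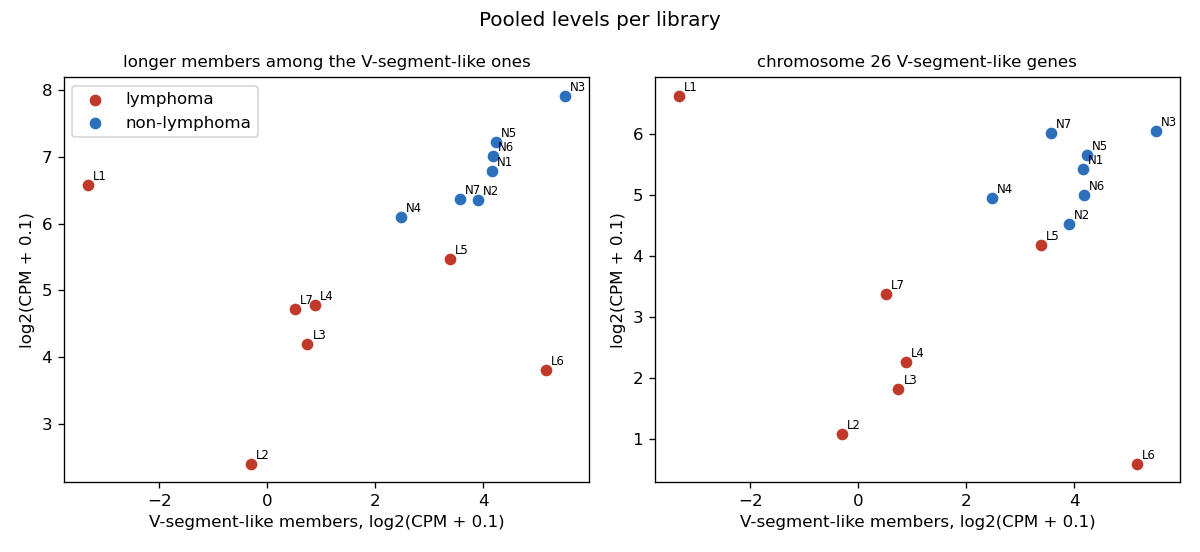
Pooled level of V-segment-like members in each library against the 6 longer members that start among or after them (left) and against 24 V-segment-like genes of chromosome 26 (right), all as log2(CPM + 0.1), with lymphoma in red and non-lymphoma in blue. Non-lymphoma libraries rise together on the left (r = 0.919), while lymphoma replicates 1 and 6 lie far from the other lymphoma libraries in both plots.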

How the data were processed

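Blood RNA of 14 dogs was sequenced from Trizol extracts, per the labels' protocols. The authors deposited 1 table of raw counts per gene, made with featureCounts 2.0.1 on read pairs over exons with the Ensembl release 103 annotation of CanFam3.1, per the file headers. No option for strand or multi-mapped reads was set there. By default the tool leaves out reads aligned to several places, which can lower the counts of similar V segments, and without strand a gene cannot be told from one antisense to it. HISAT2 2.2.1, Subread 2.0.1 and DESeq2 are named in the submitters' processing notes.

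Groups were taken from the labels. All genes were fitted with edgeR 4.0.16 in R 4.3.3 (TMM, filterByExpr, quasi-likelihood F test, Benjamini-Hochberg adjustment at 0.05, group as the only term), and SEs are the absolute fold change over the square root of F. The procedure was tested on simulated data. CPM values were computed on total counts, and pooled levels were logged with a pseudocount of 0.1 CPM. Thinning used exact hypergeometric expectations. Python 3.11.15, numpy 2.4.6, scipy 1.17.1, pandas 2.3.3 and matplotlib 3.10.9 were used, and DESeq2 1.42.0 was an alternative. The labels do not say that the samples come from separate litters or extractions, so p-values measure only the spread between these libraries.

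The members and classes were chosen with earlier results of these data known. Genes named in the text are the V-segment-like members, the 8 other members with the highest CPM per kb, the 4 largest rises and 4 largest falls among tested members, and those at the limits of the rule. The numbering, the 2 stretches, the set of 21 V-sized members, the balance of the longer members, the genes so marked in the text and the gene of chromosome 26 were chosen after the data were seen. No sequence is printed, since no genome of the files' build was used here.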

Additional observations from a re-analysis of the deposited data

Results flagged for a closer look

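In 69 groups of libraries, the gap between the most extreme library and its nearest neighbour was divided by the range of the group, and 4 groups exceeded the 95% critical value, where chance gives about 1 in 20, or 3.45. Levels were compared as log2(CPM + 0.1). Lymphoma replicate 2 stood below the rest in the pooled level of the locus stretch, with a gap of 0.573 of the range. Non-lymphoma replicate 2 stood below the rest in long member 5, starting at 72965556, with 0.591. Lymphoma replicate 6 stood above the rest in short member 6, starting at 73266605, with 0.892. Lymphoma replicate 3 stood above the rest in short member 10, starting at 73557606, with 1, which reflects a single count beside 6 libraries at 0.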

How the results depend on the processing

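The fit as described tested 22 of the 55 genes and called 8 lower, and leaving out any 1 library gave 6 to 8. DESeq2 called 15 of 40 tested members lower, and the fit within the 5-digit libraries 1 of 31. Over all genes and both directions, the fit as described called 2132 of 12836, DESeq2 3278 of 18702 and the 5-digit fit 104 of 14580. Fits with any 1 library left out called 1436 to 2516 of 12895 to 13205 genes. The unfiltered fit called 2002 of 28663. Of the V-segment-like members, 2 were tested by the fit as described and 1 was called lower (1 to 1 with 1 library left out). The number called lower was 2 without a filter on low counts, 3 with DESeq2 and 0 within the 5-digit libraries. The unfiltered fit moved the median log2 fold change of all genes to -0.45. The replicate numbers do not pair the libraries (correlations of same-numbered libraries from -0.337 to 0.345), and a replicate block gave 4 members called lower. The pooled V-segment-like difference of -3.00 stayed between -3.69 and -2.28 with 1 library left out, and turned to 0.27 within the 5-digit libraries. The locus stretch gave -1.68 to -0.88 and the flanking stretch -1.06 to -0.87 with 1 library left out. The effective number difference of -0.74 moved to -1.55 with Shannon entropy and -2.80 over the 21 V-sized members. The leading share difference of 19.6 percentage points moved to 34.9 over the 21 members. The detection difference of -4.29 moved to -2.47 at 10 counts or more. Of the relations, without the 2 farthest libraries the lymphoma r and rho became 0.817 and 0.7 for chromosome 26, 0.778 and 0.9 for the longer members, and the r 0.597 for the effective number, and the non-lymphoma values became -0.295 and -0.1 for chromosome 26 and 0.855 and 0.9 for the longer members. The rho of the longer members was 0.893 with TMM-scaled totals. With 1 library left out, in lymphoma the longer members gave r from -0.716 to 0.296 and rho from -0.486 to 0.371, and the effective number r from -0.456 to 0.606 and rho from -0.4 to 0.6. In non-lymphoma libraries the longer members gave r from 0.817 to 0.959 and rho from 0.943 to 1, and the effective number rho from -0.543 to 0.0286. Among single genes, the log2 fold change of the gene at 72773451 was 0.36 within the 5-digit libraries and -0.26 to 0.16 with 1 library left out. That of long member 5 was -0.84 with DESeq2, -0.73 with the replicate block, -1.37 within the 5-digit libraries and -2.02 to 1.34 with 1 left out. That of short member 3 was -1.62 with the block and -1.08 to 0.84 with 1 left out, and that of long member 12 was -2.11 to 0.19. The call of long member 3 was lost with the block, within the 5-digit libraries and in 8 of 14 fits without 1 library, that of long member 14 within the 5-digit libraries and in 8 of 14, that of short member 12 and of the gene at 72784788 within the 5-digit libraries, and that of the gene at 72787099 in the 5-digit libraries and with the block. The gene at 72788592, not called, was called with upper-quartile factors, with DESeq2, and without lymphoma replicate 6 or non-lymphoma replicate 4, and long member 12 without lymphoma replicate 1. Other alternatives kept direction and side of the threshold, or moved by less than the spread, in 283 values of the pooled and counted results and 294 of single genes. The cause of these changes was not tested. Every V-segment-like member overlaps another gene's span, so the alternative without overlapping genes left none and was not run. Depth limits the V-segment-like values most in lymphoma, where 5 libraries had 20 counts or fewer.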
